A study of Mus musculus with 8 samples.

Results

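Mecom, Hlf, Prdm16, Mllt3, Runx1 and Etv6 are transcription factor and chromatin reader genes of blood stem cells, and all 6 were found by symbol in a table that carries 14033 different gene symbols in 14268 rows. Where a symbol had more than 1 row, which was so for Mecom only, the row with the highest mean was used. The cells came from fetal livers of E14.5 embryos from a cross between Flt3-Cre mice and mice of the mTmG reporter, in which Cre recombination replaces the red protein Tomato by the green protein GFP for good. From the lineage-negative, Kit+, Sca1+, CD150+ gate, the phenotype of stem cells, a GFP+ and a Tomato+ fraction were sorted, and 4 libraries of each were sequenced (8 in all). The labels give the same cross for both fractions and no genotype for single embryos. GFP marks cells in which the driver was active in the cell or its ancestors, so it records a history and not current Flt3 expression. The sources used here do not say whether the libraries came from separate embryos or litters, so the p-values may reflect technical spread. The comparison asks whether stem cell regulators are expressed alike in both fractions, in a study of a developmental stem cell that yields innate-like lymphocytes.

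As background, blood stem cells are kept by a small set of transcription factors whose loss leads to exhaustion or failed emergence. Mecom (also known as Evi1 or Prdm3) and its relative Prdm16 encode zinc finger proteins with a PR domain, and both are needed to maintain stem cells. Hlf encodes a bZIP factor that marks stem cells and restrains their cycling, and Mllt3 (AF9) a reader of acylated histones that works with the super elongation complex and Dot1l. Runx1 is the DNA-binding subunit of core binding factor and is needed for stem cells to arise from endothelium, and Etv6 is an ETS family repressor needed for blood formation in the bone marrow.

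Mecom, Prdm16 and Mllt3 were each at least 2-fold lower in GFP+ than in Tomato+ cells, Hlf was lower by a smaller amount, and Runx1 and Etv6 did not pass the test. The upstream sequences of the 4 genes that fell are shown because these genes were all lower in GFP+ cells. Whether the 4 genes vary together was not tested. The sequences are the 250 bases before a RefSeq start site on GRCm38.p6, all on the minus strand and written 5′ to 3′. The deposited data were made on mm9, so these positions were matched by symbol only. The windows lie at chr3:30509760-30510009 for the distal of the Mecom starts, chr4:154636874-154637123 for Prdm16, chr4:88033408-88033657 for the upstream of the Mllt3 starts and chr11:90390918-90391167 for Hlf. Capitals mark matches to the searched motifs given after the sequences.
Mecom: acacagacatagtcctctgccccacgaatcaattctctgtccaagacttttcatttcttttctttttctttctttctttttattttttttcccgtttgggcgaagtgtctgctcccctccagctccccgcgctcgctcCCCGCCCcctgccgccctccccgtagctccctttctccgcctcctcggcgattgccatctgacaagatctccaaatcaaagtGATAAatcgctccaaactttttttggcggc
Prdm16: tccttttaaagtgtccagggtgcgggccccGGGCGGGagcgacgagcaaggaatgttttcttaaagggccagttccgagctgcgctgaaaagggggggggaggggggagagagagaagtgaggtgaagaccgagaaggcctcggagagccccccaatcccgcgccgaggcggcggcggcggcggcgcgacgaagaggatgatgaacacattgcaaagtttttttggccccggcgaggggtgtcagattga
Mllt3: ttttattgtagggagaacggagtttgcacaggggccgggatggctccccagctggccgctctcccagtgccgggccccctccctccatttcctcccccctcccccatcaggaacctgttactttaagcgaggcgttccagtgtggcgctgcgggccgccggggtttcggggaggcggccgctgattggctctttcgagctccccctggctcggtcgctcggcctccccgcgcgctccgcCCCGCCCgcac
Hlf: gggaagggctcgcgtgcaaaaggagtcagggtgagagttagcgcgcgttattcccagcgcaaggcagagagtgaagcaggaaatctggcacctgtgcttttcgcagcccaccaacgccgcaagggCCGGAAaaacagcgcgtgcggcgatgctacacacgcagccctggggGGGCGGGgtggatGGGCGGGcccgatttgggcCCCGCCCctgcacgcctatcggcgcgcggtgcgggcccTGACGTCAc
All 6 genes matched the RefSeq table, in 9 windows, since Mecom, Mllt3 and Runx1 each have a second start there. The Mecom starts lie 496555 bases apart, and as background the locus is known for a long form with a PR domain and a short form without it. Which start the reads came from cannot be read from a table of gene rows.

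On both strands 7 motifs were searched, namely GATAA (GATA factors), TGTGGT (Runx), CCGGAA (ETS), TTACGTAA (Hlf and its relatives), TGACAG (Meis), GGGCGGG (Sp and Klf factors) and TGACGTCA (the cAMP response element). None of them overlapped another in these windows. The GC-rich GGGCGGG or its complement stood in the shown window of each of the 4 genes that fell. It was in 4 of the 9 windows and in 23.4% of all 32851 windows of the same length. The second windows of Mecom and Mllt3 did not hold it. GC content was 50.8% in the shown window of Mecom, 62.4% in Prdm16, 69.2% in Mllt3 and 67.2% in Hlf. The median over all windows was 52.4%, so the share of 23.4% is not matched for GC. Hlf held 3 copies of GGGCGGG or its complement, together with the CCGGAA and TGACGTCA motifs, which were in 12.0% and 1.55% of all windows. GATAA was in both Mecom windows, at 30 to 26 bases before the distal start, and in 22.6% of all windows. CCGGAA was also in 1 window of Runx1, and TGACAG in the internal windows of Mecom and Mllt3 against 15.9% of all windows. TGTGGT and TTACGTAA were in none of the 9 windows, against 14.0% and 0.113% of all. These matches describe letters and do not show binding.

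The paralogs Mecom and Prdm16 also shared a run of 24 bases just after their start sites, shown because it is the longest run common to any pair of the 6 genes. In capitals throughout, as the whole run is shared, it is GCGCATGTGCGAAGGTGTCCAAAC at chr3:30509710-30509733 for Mecom and at chr4:154636841-154636864 for Prdm16 (GRCm38.p6, minus strand). It covers bases 27 to 50 after the Mecom start, where the window ends, and bases 10 to 33 after the Prdm16 start. Of 32851 RefSeq windows of 300 bases, 2 held it on either strand, those of Mecom and Prdm16. Over the other pairs of windows, out of 33 pairs compared, the longest shared run was 11 bases.

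The values below are the authors' means of normalized counts over the libraries of each fraction, so no value per library, SD or interval can be given. The differences are log2 of the GFP+ over the Tomato+ mean, with the sign turned from the authors' table. Called means an adjusted p under 0.05 in the authors' table, and "fell" or "rose" below means called.

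Among the PR domain genes, Mecom averaged 279 normalized counts in the GFP+ libraries and 809 in the Tomato+ libraries of the authors' deposited table. The GFP+ mean was thus 34.4% of the Tomato+ mean, 2.90-fold lower, and the authors' deposited table gave a log2 of -1.54 with adjusted p = 7.21e-18. This was the largest difference among the 6 genes. Of the 10660 rows with an overall mean of at least 50, Mecom was the 57th from the lowest log2 value, and of all 14268 rows it was the 35th by p-value. The authors' deposited table held a second, weak row of Mecom, at 14.8 in GFP+ and 37.9 in Tomato+ cells. With a log2 of -1.36 it lay in the same direction at a like size, but was not called (adjusted p = 0.219 by the authors' deposited table). The sources used here do not say which transcripts each Mecom row covers.

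For Prdm16 the authors' deposited table listed 158 normalized counts in GFP+ against 325 in Tomato+ cells. The gene fell 2.06-fold, and log2 was -1.04 at adjusted p = 9.08e-06 by the authors' deposited table. The GFP+ mean was 48.6% of the Tomato+ mean. Both PR domain paralogs with a known part in stem cell maintenance therefore fell, Mecom by more than Prdm16, but the difference between their changes was not tested, since it needs values per library.

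Mllt3, the histone reader, stood at 372 normalized counts in GFP+ against 747 in Tomato+ cells by the authors' deposited table. It fell 2.01-fold (log2 -1.01, adjusted p = 4.02e-06 by the authors' deposited table), so that the GFP+ mean was 49.8% of the Tomato+ mean. Mllt3 and Prdm16 thus differed between the fractions by nearly the same factor.

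Hlf averaged 2529.5 normalized counts over the GFP+ libraries and 3281 over the Tomato+ libraries of the authors' deposited table. It fell 1.30-fold, and the log2 of -0.38 had adjusted p = 0.0239 by the authors' deposited table. The GFP+ mean remained at 77.1% of the Tomato+ mean, so the Hlf transcript was well detected in both fractions.

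For Runx1 the authors' deposited table listed 1281 normalized counts in GFP+ against 1381 in Tomato+ cells, a log2 of -0.11 at adjusted p = 0.954. Etv6 averaged 2846 against 2985 by the authors' deposited table, a log2 of -0.07 at adjusted p = 0.874. Neither was called. The GFP+ means were 92.8% and 95.3% of the Tomato+ means, and no interval for these differences can be computed from group means, so a small change is not shown to be absent.

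**Figure D1:**
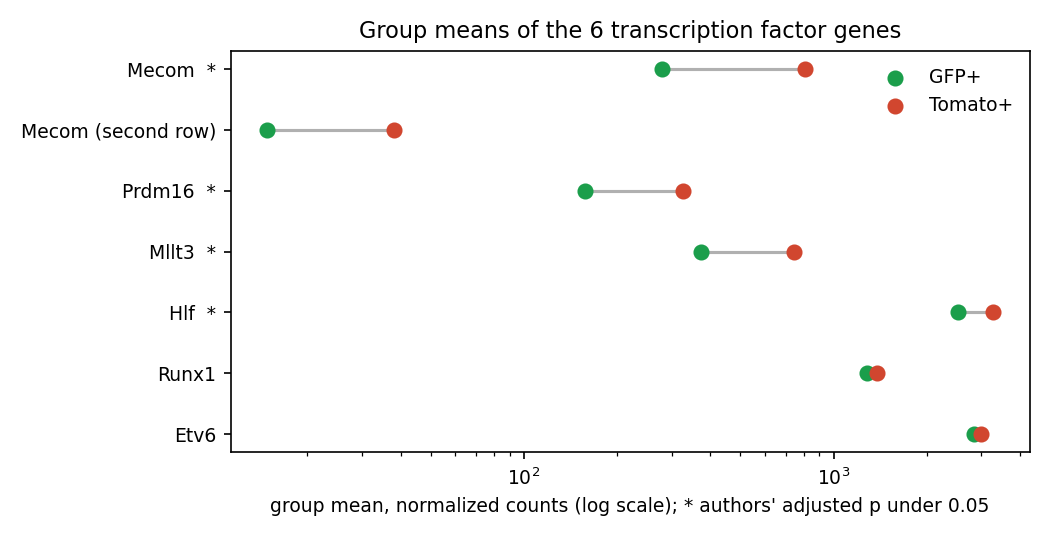
Group means in normalized counts (log axis) of the 6 genes in GFP+ (green) and Tomato+ (red) cells, 4 libraries each, with both rows of Mecom; an asterisk marks an adjusted p under 0.05 in the authors' deposited table. The GFP+ point lies left of the Tomato+ point in every row, far apart for Mecom (279 and 809) and nearly touching for Etv6 (2846 and 2985); positions of different genes are not comparable, since the values are not per length.

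In all, 4 of the 6 genes fell, 0 rose and 2 were not called, and all 6 had a lower mean in GFP+. Of all rows, 7.49% were called, 2.64% as lower and 4.86% as higher in GFP+. At least 2-fold lower and called were 3 of the 6 genes, against 1.52% of all rows. The median log2 of the 6 genes was -0.69, against 0.01 over all rows. When both fractions are scaled to the same total of group means, every log2 value moves by -0.16, so the 6 negative values move further down. In bulk RNA, fewer cells that express a gene and less RNA of it per cell cannot be told apart.

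**Figure D2:**
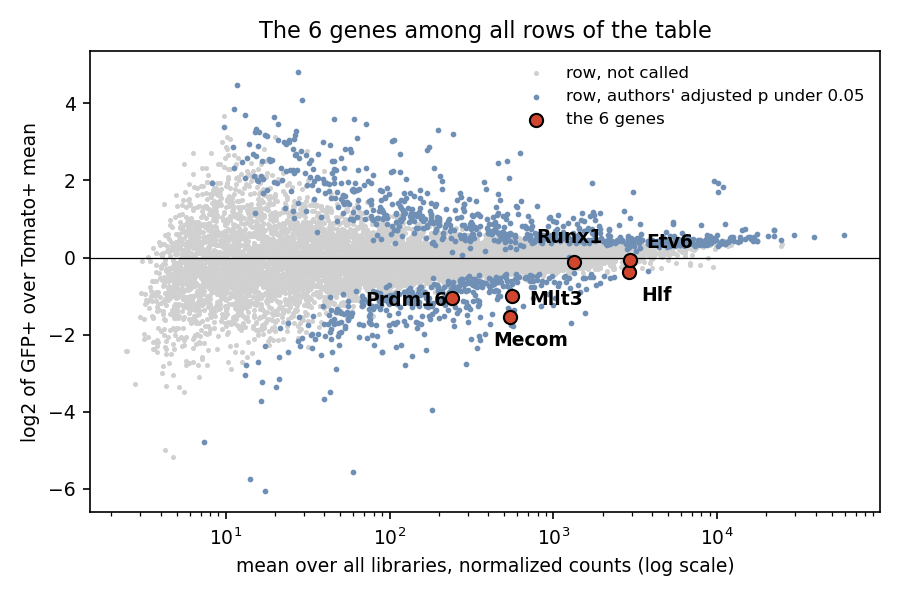
Log2 of the GFP+ over the Tomato+ mean against the mean over all libraries (normalized counts, log axis) for all 14268 rows; blue rows have an adjusted p under 0.05 in the authors' deposited table, and red circles are the 6 genes. Mecom, Prdm16 and Mllt3 lie among the called rows below the cloud at -1.54, -1.04 and -1.01, Hlf lies near its lower edge further right, and Runx1 and Etv6 lie inside it.

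How large a change was called at the level of each gene was read from the rows with an overall mean within 1.2 times its own. Near Mecom, 67 of 1305 such rows were called (5.13%), and the largest absolute log2 that was not called was 0.65. The absolute log2 of Mecom was 1.54, and 2 of these 1305 rows had a lower log2. Near Mllt3 61 of 1283 rows were called, none with an absolute log2 as large as that of Mllt3 was left uncalled, and 8 rows had a lower log2. Near Prdm16 79 of 1354 rows were called, and 16 rows had a lower log2. The absolute log2 of Prdm16, 1.04, exceeded the largest uncalled value of 0.96. These 3 genes thus lay beyond every uncalled row of like mean.

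By absolute log2, Hlf did not stand apart in the same way. Of the 184 rows near it, 36 were called, 35 of them higher and 1 lower in GFP+. The median log2 of these rows was 0.20, so that Hlf went against the lean of rows of its level. By signed log2, only 1 of the 184 rows lay lower than Hlf. Of the 31 rows with an absolute log2 of at least that of Hlf, 27 were called and 4 were not. The largest uncalled absolute log2 was 0.42, above the 0.38 of Hlf. Near Runx1, 403 of 618 rows had an absolute log2 at least as large as its own, and near Etv6 162 of 186. The rows near both genes also leaned upward, with a median log2 of 0.11 near Runx1 and 0.20 near Etv6. A lower signed log2 than the gene's own was found in 93 of the 618 rows near Runx1 and in 18 of the 186 near Etv6. Size alone did not set the calls, since a row near Runx1 with an absolute log2 of 0.02 was called in the authors' table.

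**Figure D3:**
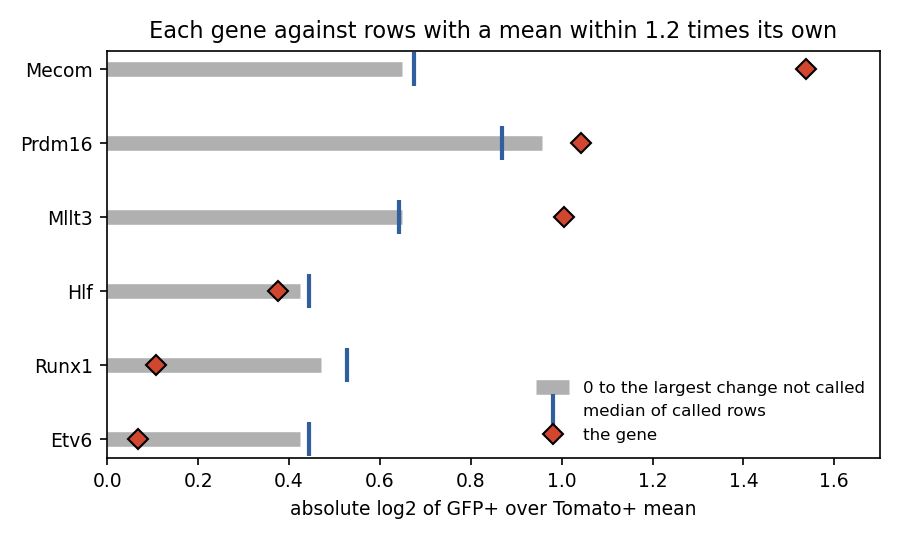
Absolute log2 of GFP+ over Tomato+ for each gene (red diamond) beside rows with an overall mean within 1.2 times its own: the grey bar runs from 0 to the largest value not called, and the blue tick is the median of called rows. Mecom (1.54), Prdm16 (1.04) and Mllt3 (1.01) lie beyond their bars, and Hlf (0.38), Runx1 (0.11) and Etv6 (0.07) within them.

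To order the genes by level, each mean was divided by the length of the gene's merged exons in GENCODE M21. In Tomato+ cells the order of means per kilobase was Etv6 at 499 and Hlf at 491, then Runx1 at 115, Mecom at 65.1, Mllt3 at 62.2 and Prdm16 at 34.9. In GFP+ cells the order of means per kilobase was Etv6 at 476, Hlf at 379, Runx1 at 107, Mllt3 at 31.0, Mecom at 22.4 and Prdm16 at 17.0. Mecom and Mllt3 changed places between the fractions. Etv6 and Hlf in Tomato+ cells were so close that the order depends on the length used, and with the longest coding transcript Hlf came first. Whether other neighbours differ beyond the spread of libraries cannot be tested here.

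The changes were then set beside the relatives of each gene. Of 10 measured PRDM family genes, 2 fell and 0 rose, and those 2 were Mecom and Prdm16. The other 8 had log2 values from -0.77 to 0.37 with a median of -0.07. Of the relatives of Hlf, Dbp and Tef, both PAR bZIP activators, had log2 values of -0.48 and -0.18 and were not called (adjusted p = 0.832 and 0.940 by the authors' deposited table). Nfil3, a repressor that binds the same kind of site and takes part in innate lymphoid development, rose 3.50-fold, from 42.8 normalized counts in Tomato+ to 149.7 in GFP+ cells (adjusted p = 5.12e-05 by the authors' deposited table). Hlf and Nfil3 were thus called in opposite directions.

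None of the 4 genes of the Runx family and core binding factor beta was called. Runx2 and Runx3, the paralogs with known parts in bone and lymphoid cells, were at log2 values of 0.37 and 0.48, against -0.11 for Runx1, with adjusted p = 0.0899 and 0.147 by the authors' deposited table. Cbfb, the shared partner that stabilises Runx proteins on DNA, averaged 1497 against 1324 normalized counts by the authors' deposited table (adjusted p = 0.784). Among ETS family genes with an Etv symbol, which need not be close relatives of Etv6, 0 of 5 measured were called. Etv5 and Etv3 came closest, with log2 values of 0.60 and -0.19 (adjusted p = 0.0807 and 0.777 by the authors' deposited table).

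The list of the super elongation and Dot1l complexes, which act in transcription elongation, had 18 measured genes, of which 2 fell and 0 rose. It also held Kmt2a, Men1 and Psip1 of the MLL complex, and of the 15 genes without these 3 only Mllt3 was called. The other fall was that of Kmt2a (MLL1, Mll1 in the table), the histone methyltransferase to which Mllt3 is fused in leukaemia, at 1687 normalized counts in GFP+ against 2363 in Tomato+ cells (1.40-fold lower, adjusted p = 0.00729 by the authors' deposited table). The Mllt3 paralog Mllt1 had a log2 of 0.12, the methyltransferase Dot1l -0.06 and the kinase Cdk9 0.13 by the authors' deposited table, and none of them was called. The median log2 of the 17 genes other than Mllt3 was -0.06.

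Of 24 corepressors and coactivators that work with the 6 factors, 2 rose and 0 fell, with a median log2 of -0.04. Of all rows, 7.49% were called in either direction. The corepressor Tle3 and the arginine methyltransferase Prmt1, which both bind Runx1, rose by factors of 1.46 and 1.37 according to the authors' deposited table. The Mecom and Prdm16 corepressors Ctbp1 and Ctbp2 were not called, at log2 values of 0.06 and -0.12 by the authors' deposited table.

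Other stem cell transcription factors were lower in GFP+ more often than not. Of 28 measured partners 7 fell and 1 rose, where 2.64% of all rows were called lower and 4.86% higher. A log2 below 0 was found in 22 of the 28, against 48.8% of all rows, and the median log2 was -0.34. Gata2, a zinc finger factor that stem cells need to survive, fell 2.06-fold, from 1371 normalized counts in Tomato+ to 665 in GFP+ cells by the authors' deposited table. By the authors' deposited table Gfi1 fell 1.68-fold, Tal1 1.58-fold, Meis1 1.55-fold and Myb 1.26-fold. The call of Myb was close to the threshold (adjusted p = 0.0485 by the authors' deposited table). The immediate early gene Egr1 was also in this list and fell 15.5-fold by the authors' deposited table, and Ikzf1 (Ikaros), a lymphoid regulator, rose 1.43-fold. Fli1, Erg and Lmo2 were not called, at log2 values of -0.40, -0.25 and -0.12 by the authors' deposited table.

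The genes whose change was closest to that of each of the 6 were picked among 89 genes of the lists with a mean of at least 50, by the absolute difference in log2, a measure that rests on 2 group means only. The closest to Mecom was Pf4, at 0.09 from it. For Prdm16 and Mllt3 alike they were Gata2 and the corepressor Tle2. The differences to Gata2 were 0.00079 and 0.037, and those to Tle2, which was not called, were 0.18 and 0.14. For Hlf they were Crebbp and Cbfa2t3, neither of which was called. Mllt6 and Mycn were closest to Runx1, and Sin3a and Sin3b to Etv6, with no calls among these 4.

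Of 12 known Runx1 target genes, 5 fell and 2 rose while Runx1 itself was not called. By the authors' deposited table the neutrophil elastase gene Elane fell 5.47-fold, the platelet integrin gene Itga2b (CD41) 3.92-fold, the platelet chemokine gene Pf4 2.73-fold and Gfi1 1.68-fold. The rises were 9.81-fold for the lymphoid recombinase gene Rag1 and 2.34-fold for the macrophage receptor gene Csf1r by the authors' deposited table. Spi1 (PU.1), with a log2 of 0.37, was not called (adjusted p = 0.115 by the authors' deposited table). The median log2 of the 12 was -0.26.

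**Figure D4:**
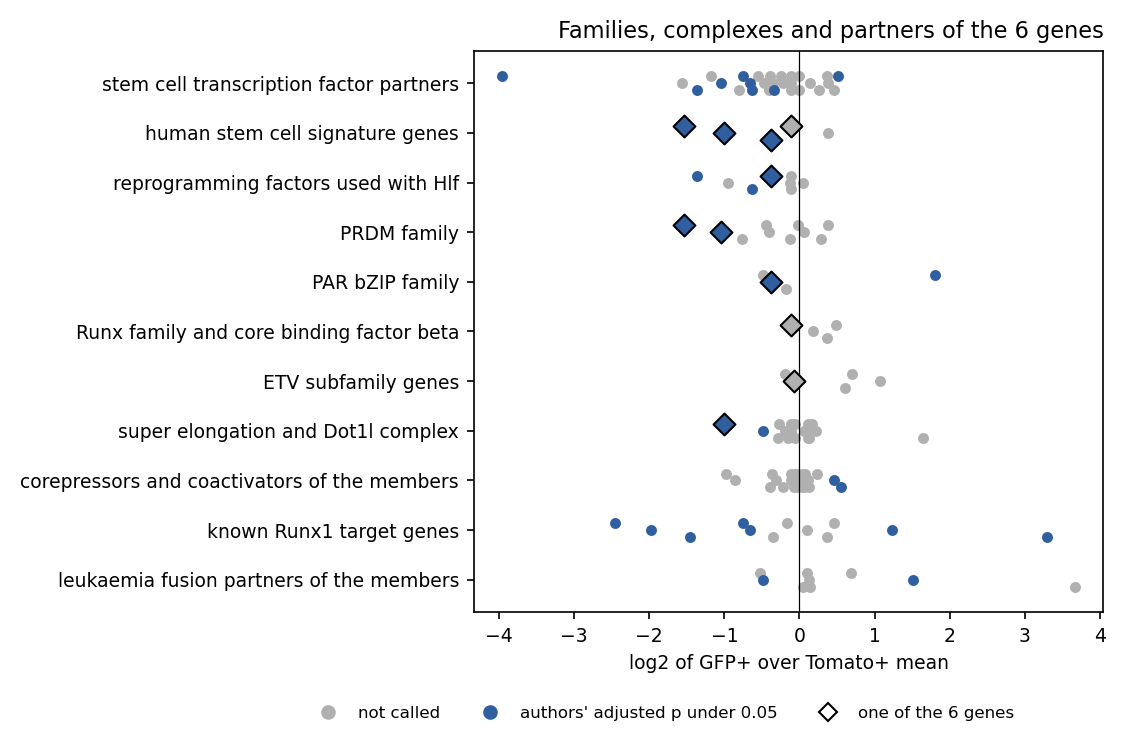
Log2 of the GFP+ over the Tomato+ mean of each measured gene in 11 lists of relatives, complexes, partners and targets; blue is an adjusted p under 0.05 in the authors' deposited table, grey is not called, and diamonds are the 6 genes. In the PRDM family only the diamonds of Mecom and Prdm16 are blue, and no gene of the Runx and ETV rows is blue.

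Markers of the sort and of other cells moved between the fractions as well. All 3 positive gate genes were detected, with GFP+ and Tomato+ means of 4087 and 4949.6 for Kit, 27.9 and 119 for Slamf1 (CD150) and 59.5 and 70.1 for Ly6a (Sca1) by the authors' deposited table. Of 10 sort and stem cell surface genes 5 fell and 2 rose, with Flt3 among the rises. Megakaryocyte genes fell in 8 of 10 and rose in 0 cases, and their summed level was 2019 in GFP+ and 4225 in Tomato+. Endothelial genes, a cell type that also expresses Mecom, fell in 7 of 10 and rose in 0 cases, with sums of 2662 and 4968. Their part in the lower Mecom, Prdm16 and Mllt3 means was not tested.

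Hepatoblast and macrophage genes were higher in GFP+, the fraction in which the 6 genes had lower means. All 9 measured hepatoblast and all 10 macrophage genes rose, with sums of 3012 in GFP+ and 1004 in Tomato+ for the former and 1941 and 542 for the latter. Of 8 erythroid genes 5 rose and 1 fell (sums 36408 and 10890.4), of 10 B lymphoid genes 7 rose and 0 fell (sums 1236 and 327), and of 6 mature lineage genes 1 rose and 0 fell (sums 1127 and 578). The erythroid sum is carried by the globin genes Hba-a2 and Hbb-b1, at 16122 and 15589 in GFP+ cells, while Gata1, Epor and Klf1 had log2 values of -1.06, -0.89 and -0.46 by the authors' deposited table, of which Gata1 was called. No group mean in the table was 0, and of these lists Cd3e, Cd8a, Ly6g, Serpina1a, Hba-a1 and Hbb-b2 matched no row. The part of these cells in the 6 genes' values was not tested.

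**Figure D5:**
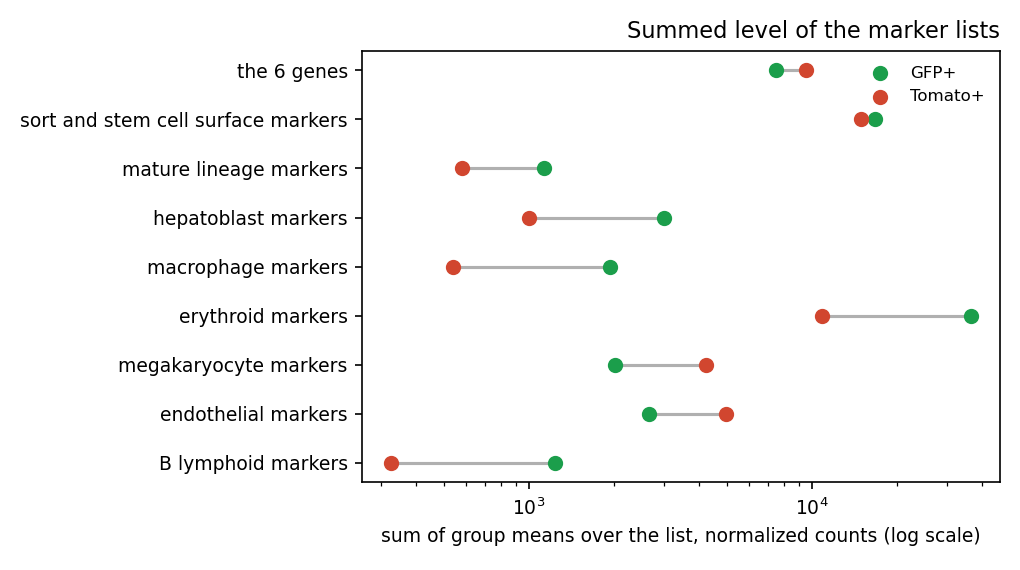
Sum of the group means (normalized counts, log axis) of the 6 genes and of 8 marker lists in GFP+ (green) and Tomato+ (red). The 6 genes, the megakaryocyte and the endothelial lists lie lower in GFP+, and the mature lineage, hepatoblast, macrophage, erythroid and B lymphoid lists lie higher. The sum of the sort list is higher in GFP+ (16721 against 14909.9) although 7 of its 10 genes had a log2 below 0, since Cd34 and Flt3 are large in it.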

How the data were processed

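RNA was measured in 4 GFP+ and 4 Tomato+ libraries made from total RNA of sorted cells. Per the submitters' processing notes, the tools were DESeq, bedtools, TopHat, TopHat2 2.0.11 and Bowtie2 2.2.1, on build mm9. Their roles and settings are not stated there. The authors deposited, per the file headers, a mean normalized count over all libraries and over each fraction, a signal averaged over libraries, with the ratio of both means (Tomato+ over GFP+), the log2 of this ratio, and p-values before and after adjustment. The deposited log2 equalled that of the group means within 1.0e-06, and the deposited adjusted p equalled the Benjamini-Hochberg adjustment over all 14268 rows within 5.3e-08. A repeated header line after 1374 rows was dropped. No pseudocount was used. The sources used here do not say how reads shared by near-identical genes or opposite strands were treated, and the depth per library is unknown.

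The authors' test across all rows was read as it stands, since no values per library were at hand. The members and the 19 lists were chosen with earlier results of these data known. The table held 172 of the 189 listed genes, 5 under an older symbol. Named were the 6 genes, all called members of the family, complex and partner lists, the genes closest in change, and otherwise the members with the smallest p-values; other genes were chosen after their values were seen, and some genes that the rule names are not reported here. Calculations used Python 3.11.15, pandas 2.3.3, numpy 2.4.6 and scipy 1.17.1, and the adjustment and the counting of calls were tested on simulated data. Sequences are RefSeq's (GRCm38.p6). Alternatives are given in the closing section.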

Additional observations from a re-analysis of the deposited data

How the results depend on the processing

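No paired analysis was possible because values of single libraries were not analysed here, only group means, so the planned replicate block was not run. Leaving out single libraries, other size factors and filters on counts per library were not run for the same reason, and what the unknown depth limits is the precision of rows with low means, such as the second Mecom row. Each of the 6 genes was recomputed under 9 alternatives, none of which could turn a direction. In 6 of the 9 the log2 stays as it is. The same total and centring move these negative values further down, and a pseudocount cannot change a sign. Of the 9 alternatives, 3 (the same total, centring and a pseudocount of 10) keep the authors' p-values, so they bear on the log2 values and not on the calls. Log2 values ranged from -1.69 to -1.51 for Mecom, -1.20 to -0.997 for Prdm16 and -1.16 to -0.987 for Mllt3. Under the 6 that could change a call, Mecom, Prdm16 and Mllt3 were called each time and Runx1 and Etv6 never. Hlf was called under 3 of them and was lost with a Bonferroni adjustment, with a minimum absolute log2 of 1 and at an adjusted p under 0.01, each a stricter criterion, at an unchanged log2 of -0.38. Of the 6 genes 4 were called, and 3 with each of these 3 criteria. Against 1069 calls among all rows and 19 among 103 list genes, an adjusted p under 0.01 left 699 rows, a minimum absolute log2 of 1 left 492 rows and 10 list genes, and Bonferroni left 308 rows and 11 list genes. An adjusted p under 0.1 called 26 list genes. Among rows within 1.5 times a gene's mean in place of 1.2 times, the share called was 5.35% near Mecom, 7.01% near Prdm16, 5.36% near Mllt3, 15.2% near Hlf, 7.49% near Runx1 and 15.1% near Etv6. The length of the longest coding transcript was chosen as an alternative after seeing the data.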

Other observations

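Genes that laboratories combine with Hlf to turn other blood cells into stem cells, and genes fused to the 6 in leukaemia, were also read. Of the 7 measured factors used with Hlf, 2 fell, with Meis1 among them, and 5 were not called, including Lmo2 and Mycn at log2 values of -0.12 and -0.11 and the barely detected Runx1t1 and Zfp37, whose overall means were 19.1 and 11.1 by the authors' deposited table. Of the human stem cell signature that includes Mecom, Hlf, Mllt3 and Runx1, Hoxa9 averaged 705 normalized counts in GFP+ against 542 in Tomato+ cells, a log2 of 0.38, opposite in sign to the other 4 measured genes, and was not called (adjusted p = 0.0521 by the authors' deposited table). Spink2 of that signature matched no row.

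Of 9 measured fusion partners 1 rose, 1 fell and 7 were not called. Mn1, a cofactor fused to Etv6 in leukaemia, rose 2.84-fold, from 159 normalized counts in Tomato+ to 451 in GFP+ cells (adjusted p = 2.60e-11 by the authors' deposited table), while Etv6 was not called. Pax5, the B cell regulator and also fused to Etv6, had low means, with 18.1 normalized counts in GFP+ against 1.43 in Tomato+ cells, a log2 of 3.66, and just missed the threshold (adjusted p = 0.0504 by the authors' deposited table). Jak2 and Pdgfrb, also fused to Etv6, had log2 values of -0.52 and 0.68 and were not called (adjusted p = 0.0767 and 0.0869 by the authors' deposited table).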
